A study of Mus musculus with 22 samples.

Results

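The transcripts of the IGF1 axis examined here were those of *Igf1*, of its receptor *Igf1r*, and of the binding proteins *Igfbp2*, *Igfbp3*, *Igfbp4*, *Igfbp5*, *Igfbp6* and *Igfbp7*, a list of 8 genes chosen by symbol out of 55401 gene identifiers in the count table. All 8 had an identifier and all 8 passed the filter on low counts in both sets of cells. They were measured by RNA-seq in 22 libraries of mouse embryonic fibroblasts (MEFs), primary cells cultured from embryos without head and viscera and passaged serially in atmospheric oxygen. The methods describe passaging until WT cells stopped dividing, with RNA taken at passage 3 and passage 8. The *S6K1* set held early WT MEFs at passage 3 (4 libraries), late WT MEFs at passage 8 (4 libraries) and late *S6K1* KO MEFs at passage 8 (3 libraries). The *S6K1/S6K2* set held early WT (4 libraries) and late WT MEFs (4 libraries) at these same passages, and late *S6K1/S6K2* DKO MEFs at passage 8 (3 libraries). Per the methods, WT and *S6K1* KO MEFs were littermates, whereas DKO MEFs came from matings of *S6K1*+/-;*S6K2*-/- mice and their controls from WT mothers, so genotype and litter cannot be told apart in the DKO comparison. The labels give no treatment other than passage.

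IGF1 is a secreted growth factor that acts through IGF1R, a receptor tyrosine kinase upstream of PI3K, AKT and mTOR. S6 kinase lies downstream of mTOR and feeds back on the insulin receptor substrates. IGF binding proteins hold IGFs in the medium and the matrix, where they prolong their half-life, block their access to the receptor or release them after proteolysis, and several are known members of the secretory phenotype of senescent fibroblasts. In embryonic fibroblast cultures most of these genes are expressed by mesenchymal cells, and *Igf1* is also expressed by macrophages.

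Total counts per library were 10742454 to 17314832 (median 14651363.5), and each of the 8 genes had between 121 and 69004 counts in each library, so counting error was small against the spread between libraries. The targeted genes followed the labels: *Rps6kb1* (S6K1) was lower in KO (20.0 ± 5.07 counts per 1000000, CPM, SD, n = 3) than in late WT MEFs (63.5 ± 9.16, n = 4), and in DKO MEFs *Rps6kb1* was at 23.9 ± 4.03 CPM and *Rps6kb2* (S6K2) at 0.812 ± 0.478 CPM. *Cdkn2a*, the senescence marker that encodes p16, rose with passage by 1.20 and 1.10 on the log2 scale in the *S6K1* and *S6K1/S6K2* sets (edgeR quasi-likelihood test, Benjamini-Hochberg adjusted *P* = 0.0137 and 0.0156). The labelled cell type was checked against 9 fibroblast markers, none of which was at 0 in any library. Their summed level was lower in late than in early WT libraries without overlap, at 12654 to 20056 against 22655 to 30381 CPM in the *S6K1* set and 13442 to 18563 against 24508 to 32418 CPM in the *S6K1/S6K2* set. Of the 9, 2 were called lower in each set, where 5.97% and 4.89% of all genes tested were. By sign, 3 were higher and 6 lower with passage in the *S6K1* set, and 1 higher and 7 lower in the *S6K1/S6K2* set. The cultures also held transcripts of macrophages: none of 18 macrophage markers was at 0 in any library, and their summed level was 535 to 1144 CPM in early WT, 5675 to 11812 in late WT and 3763 to 5109 in KO MEFs of the *S6K1* set, and 622 to 2085, 7746 to 13302 and 967 to 3590 CPM in early WT, late WT and DKO MEFs of the *S6K1/S6K2* set. In bulk samples, fewer cells of a type and less RNA per cell cannot be told apart. Y-linked transcripts were above 10 CPM in 2 of 4 early WT, 1 of 4 late WT and 3 of 3 KO libraries of the *S6K1* set, and in 2 of 4 early WT, 3 of 4 late WT and 1 of 3 DKO libraries of the *S6K1/S6K2* set, so the sex of the embryos was not balanced between groups.

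**Figure D1:**
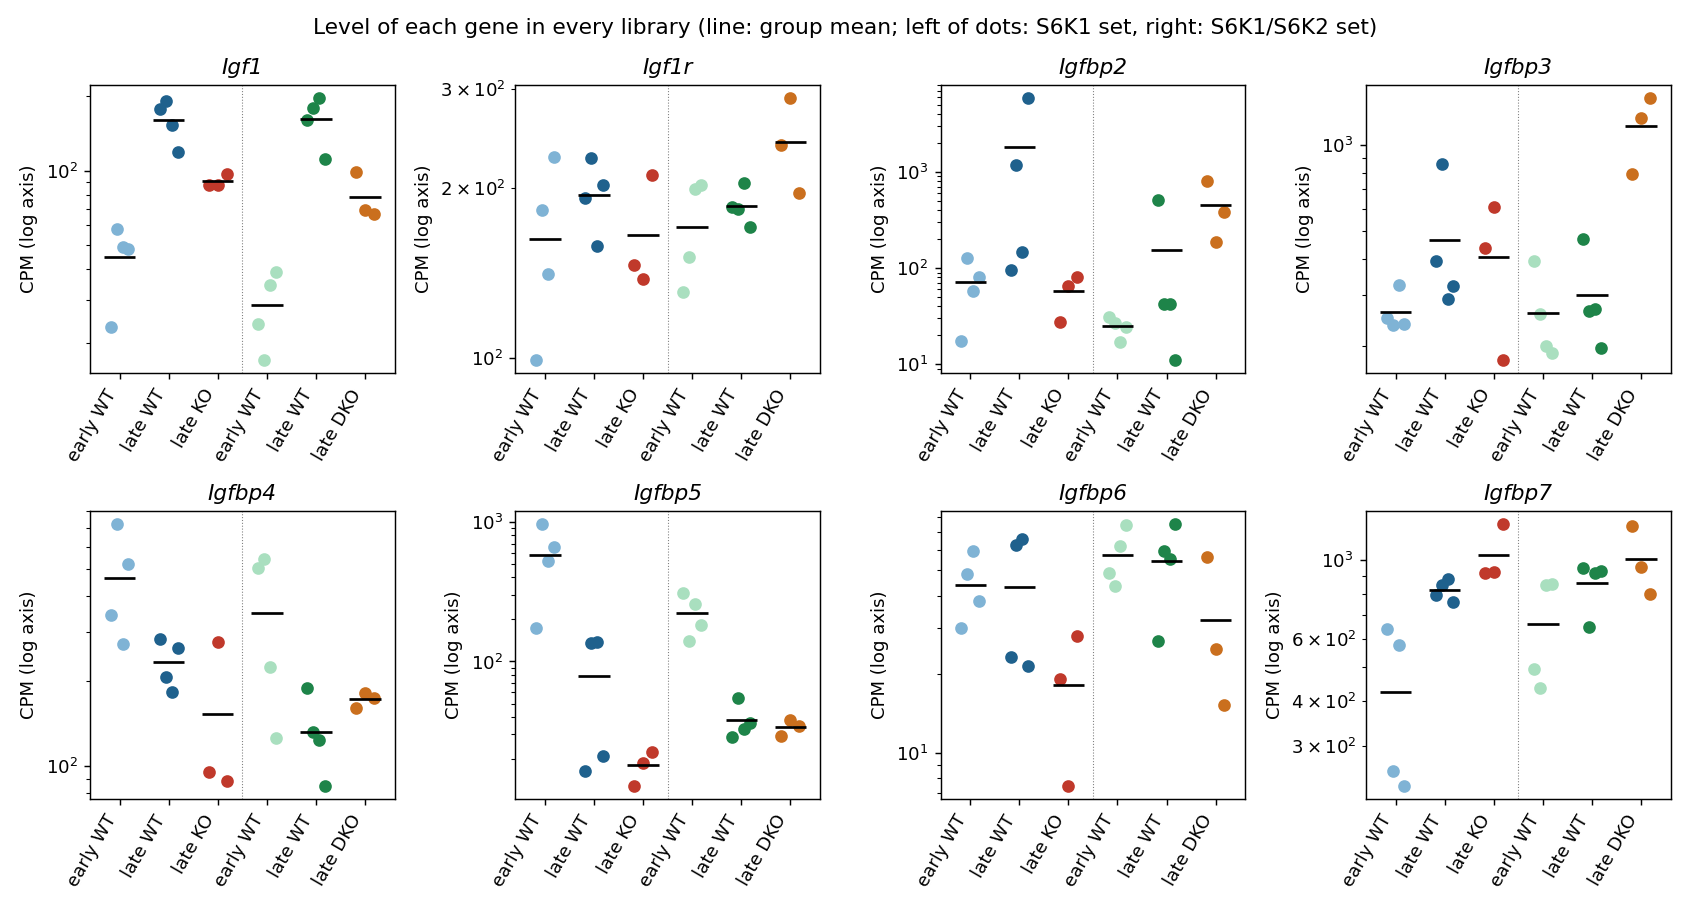
Level of each of the 8 genes in every library, in CPM (counts per 1000000, scaled by TMM) on log axes. Points are libraries, black lines are group means, and the dotted line parts the *S6K1* set (left) from the *S6K1/S6K2* set (right). *Igf1* sits at 17.0 to 57.9 CPM in early WT and 112 to 197 CPM in late WT libraries, with the KO and DKO libraries between them at 66.8 to 98.9 CPM.

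*Igf1*, the ligand of the family, rose with passage in both sets and was lower in late DKO than in late WT MEFs. In the *S6K1* set, its level in the 4 early WT libraries was 23.3, 57.9, 49.2 and 48.1 CPM and in the 4 late WT libraries 178, 192, 153 and 119 CPM. The late KO libraries had 87.6, 87.2 and 97.3 CPM. All KO values were thus above the early and below the late WT values, without overlap. In the *S6K1/S6K2* set, early WT libraries had 23.9, 17.0, 34.4 and 38.7 CPM, late WT libraries 161, 179, 197 and 112 CPM, and DKO libraries 98.9, 69.5 and 66.8 CPM. The same order was seen here, again without overlap. Over the 6 groups, the means fell into 3 levels: 28.5 ± 9.89 and 44.6 ± 14.9 CPM in early WT, 78.4 ± 17.8 and 90.7 ± 5.70 CPM in DKO and KO, and 160 ± 31.9 and 162 ± 36.5 CPM in late WT MEFs (SD, n = 3 or 4), and neighbouring groups overlapped only within a level.

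*Igf1* was 3.59-fold higher in late than in early WT MEFs of the *S6K1* set (log2 fold change 1.84, SE 0.25, adjusted *P* = 0.00051, edgeR) and 5.81-fold higher in the *S6K1/S6K2* set (2.54, SE 0.26, adjusted *P* = 0.000283). In KO MEFs its log2 fold change against late WT was −0.82 (SE 0.26, adjusted *P* = 0.311), which did not pass. In DKO MEFs it fell by 1.06 on the log2 scale (SE 0.28), with an adjusted *P* = 0.04999 that lay at the threshold. That call was lost in 5 of 7 fits that each left out 1 library (all but those without late WT replicate 4 or DKO replicate 1), with adjusted *P* up to 0.221. It was also lost with RLE scaling (adjusted *P* = 0.0585), upper quartile scaling (0.0571), no filter on low counts (0.106) and the Y-linked genes as a covariate (0.0956). It was kept by DESeq2 (adjusted *P* = 0.00603), and by edgeR with all 6 groups (0.0391) or 2 groups in the fit (0.033). The KO and DKO effects differed by −0.23 (DKO minus KO, SE 0.40, adjusted *P* = 0.886, interaction term), so a difference between them was not detected.

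Macrophage markers moved in the same direction as *Igf1* in each of these comparisons. All 18 rose with passage in both sets (median log2 fold change 3.04 and 2.58), all 18 were lower in KO MEFs with 0 called (median −0.88), and in DKO MEFs 17 of 18 fell (median −2.42). Over the 22 libraries, *Igf1* and the summed markers, both on the log2 scale, had a Pearson correlation of 0.88 centred on each set and 0.58 centred on each group. The order of the libraries was not the same for both readouts. DKO replicates 2 and 3 had marker sums of 1106 and 967 CPM, within the range of early WT libraries of that set, while their *Igf1* level of 69.5 and 66.8 CPM was above each of those early libraries. With the log2 of the summed marker level as a covariate, the log2 fold change of *Igf1* with passage was 1.68 (SE 0.96, adjusted *P* = 0.926) and 1.05 (SE 0.32, adjusted *P* = 0.361). In DKO MEFs it was 0.28 (SE 0.30, adjusted *P* = 0.657), so none of the 3 calls was kept in that fit. Few genes of any kind passed in it. With passage 1 and 4 of all genes did, against 1827 and 1892 without the covariate, and in DKO MEFs 17 against 686. The covariate and passage cannot be told apart in these cultures. Nor can the covariate and genotype, because marker sums did not overlap between late WT and DKO (7746 to 13302 against 967 to 3590 CPM). They did not overlap between late WT and KO either (5675 to 11812 against 3763 to 5109 CPM). The part of macrophages in the *Igf1* level was not tested. Correlation with the summed markers was not particular to *Igf1*. For *Igfbp7* it was 0.63 centred on each set and 0.58 centred on each group. For *Igfbp4* and *Igfbp5* it was −0.65 each centred on each set, and −0.42 and −0.07 centred on each group. For *Igf1r*, *Igfbp2*, *Igfbp3* and *Igfbp6* it was −0.06 to 0.22 centred on each set.

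**Figure D2:**
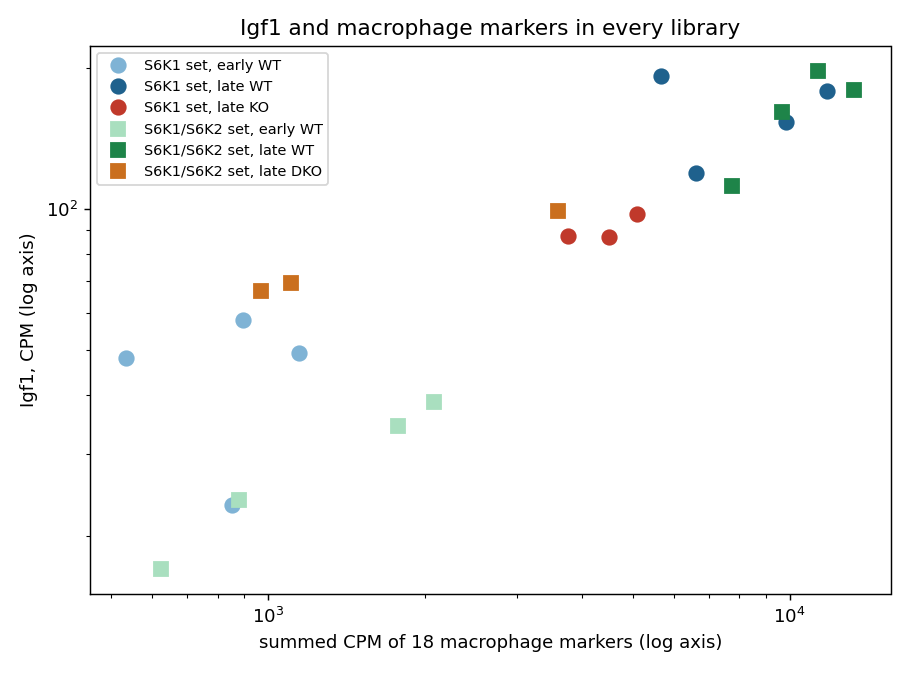
*Igf1* level against the summed level of 18 macrophage markers, both in CPM on log axes, 1 point per library, circles for the *S6K1* set and squares for the *S6K1/S6K2* set. Late WT libraries lie at the upper right, and DKO replicates 2 and 3 lie above the early WT libraries of their set (green) at marker sums of 1106 and 967 CPM. On the log2 scale and centred on each set, the Pearson correlation over the 22 libraries was 0.88.

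*Igf1* lies on chromosome 10 (chr10:87858265-87937047, plus strand, GRCm38.p6, RefSeq), and the RefSeq start in the promoter table falls inside that interval. The 250 bases before the start (chr10:87860861-87861110) are shown for the ligand because it changed in 3 of the 4 comparisons, and those of *Igfbp3* and *Igfbp5* (both on the minus strand, chr11:7213924-7214173 and chr1:72874866-72875115) because of the rise of the first in DKO MEFs and the fall of the second with passage in both sets. *Igfbp2* (plus strand, chr1:72824230-72824479, the first of its 2 starts) is added as the neighbour of *Igfbp5*. Like that of *Igf1*, the *Igfbp3* window lies inside the interval of its gene (chr11:7206086-7215498), not before its outer end. Capitals mark matches, on either strand, to 5 motifs, which are TATAAA for the TATA box, CCAAT for the box of that name, GGGCGG for the GC box, TTNNGCAA for C/EBP and TGANTCA for AP-1.
Igf1: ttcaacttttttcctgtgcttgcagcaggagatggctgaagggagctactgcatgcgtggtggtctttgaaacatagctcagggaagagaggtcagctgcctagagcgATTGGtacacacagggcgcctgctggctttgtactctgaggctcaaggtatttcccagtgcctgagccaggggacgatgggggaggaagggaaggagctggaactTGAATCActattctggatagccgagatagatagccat
Igfbp2: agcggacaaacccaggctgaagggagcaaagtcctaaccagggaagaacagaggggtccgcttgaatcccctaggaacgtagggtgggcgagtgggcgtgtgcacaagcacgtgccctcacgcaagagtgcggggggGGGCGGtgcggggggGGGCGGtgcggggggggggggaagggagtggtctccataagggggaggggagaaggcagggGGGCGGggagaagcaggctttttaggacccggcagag
Igfbp3: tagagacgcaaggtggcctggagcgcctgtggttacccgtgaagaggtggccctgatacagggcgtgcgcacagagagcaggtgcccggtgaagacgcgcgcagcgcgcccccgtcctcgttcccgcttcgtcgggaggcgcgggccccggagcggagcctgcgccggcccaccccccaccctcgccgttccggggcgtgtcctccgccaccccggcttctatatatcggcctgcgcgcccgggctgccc
Igfbp5: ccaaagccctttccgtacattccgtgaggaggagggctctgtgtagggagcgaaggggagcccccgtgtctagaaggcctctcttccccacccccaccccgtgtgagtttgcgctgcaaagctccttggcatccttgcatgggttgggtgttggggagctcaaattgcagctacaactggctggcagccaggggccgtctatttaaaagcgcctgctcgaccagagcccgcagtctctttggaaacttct
The *Igf1* window held 1 CCAAT box on the minus strand and 1 AP-1 match, and the *Igfbp2* window held 3 GC boxes. None of the 5 motifs was in the windows of *Igfbp3* or *Igfbp5*, which says only that these letters are not there. Of 32851 windows of the same length, 33.8% held a CCAAT box, 6.75% an AP-1 match, 32.7% a GC box, 12.4% a TATA box and 9.56% a C/EBP match. Matches are given as a description of the sequence. The genes *Igfbp2* (chr1:72824480-72852474) and *Igfbp5* (chr1:72858065-72874865) are transcribed towards each other, with 5590 bases between their ends.

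*Igf1r*, the receptor, did not pass in any of the 4 comparisons. Its level was 99.0, 183, 141 and 227 CPM in early WT, 192, 226, 158 and 203 CPM in late WT and 146, 138 and 211 CPM in KO libraries of the *S6K1* set, and 131, 151, 199 and 203, then 185, 184, 204 and 171, then 239, 289 and 196 CPM in early WT, late WT and DKO libraries of the *S6K1/S6K2* set. The groups overlapped in each comparison. Its log2 fold change was 0.26 (normal 95% interval −0.21 to 0.72) and 0.15 (−0.16 to 0.46) with passage, −0.24 (−0.75 to 0.27) in KO and 0.36 (0.03 to 0.70) in DKO MEFs (adjusted *P* = 0.525, 0.554, 0.784 and 0.286, edgeR). The interval in DKO MEFs lay above 0, but the unadjusted *P* of the edgeR F test was not under 0.05. Normal intervals are narrower than that test.

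*Igfbp5*, which encodes a binding protein that associates with extracellular matrix, fell with passage in both sets. In the *S6K1* set, its level was 173, 969, 524 and 664 CPM in early WT libraries against 16.4, 136, 139 and 20.9 CPM in late WT libraries. In the *S6K1/S6K2* set, it was 307, 141, 259 and 182 CPM against 28.6, 54.9, 32.9 and 36.3 CPM. Early and late libraries did not overlap in either set. The level was 7.44-fold lower in late WT MEFs of the *S6K1* set (log2 fold change −2.89, SE 0.71, adjusted *P* = 0.0192, edgeR) and 5.71-fold lower in those of the *S6K1/S6K2* set (−2.51, SE 0.26, adjusted *P* = 0.000303). Without early WT replicate 2 the first call was lost (adjusted *P* = 0.0513), as it was without a filter on low counts (0.111). That call was kept by DESeq2 (adjusted *P* = 0.002), and by edgeR with all 6 groups (0.00154) or 2 groups in the fit (0.0451). With the macrophage covariate both calls were lost, at −1.75 (SE 2.78, adjusted *P* = 0.934) and −2.58 (SE 0.62, adjusted *P* = 0.271). Few genes of any kind passed with that covariate, as given above. Summed levels of several marker lists were also lower in late WT libraries, among them the fibroblast markers as given above. Epithelial and mesothelial markers went from 56.1 to 118 CPM in early to 12.9 to 40.6 CPM in late WT libraries, with 3 of 5 tested called lower in each set and 1 of 5 positive in the *S6K1* set. In that set muscle markers went from 46.9 to 84.8 to 15 to 29.3 CPM, and cartilage markers from 4.25 to 17.8 to 1.19 to 3.61 CPM. Both sums overlapped in the other set. Only 2 of 6 muscle and 3 of 5 cartilage markers were tested in the *S6K1* set. At 0 in at least 1 library were 5 muscle and 3 cartilage markers, so these sums rest on few genes. Endothelial and adipocyte sums overlapped in both sets. The part of any of these in the levels of *Igfbp5* and *Igfbp4* was not tested.

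Late-passage KO libraries had 12.8, 18.8 and 22.5 CPM of *Igfbp5*, which overlapped with the 2 lowest of the 4 late WT libraries. The log2 fold change was −2.12 (SE 0.77, adjusted *P* = 0.362), not past the threshold. DKO libraries had 29.4, 38.4 and 34.3 CPM and lay within the range of late WT libraries (log2 fold change −0.18, 95% interval −0.72 to 0.36, adjusted *P* = 0.791).

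*Igfbp4*, whose product inhibits IGF action until it is cleaved by the protease encoded by *Pappa*, fell with passage in the *S6K1/S6K2* set. Its level was 502, 542, 225 and 126 CPM in early WT and 189, 132, 124 and 84.9 CPM in late WT libraries, so the groups overlapped. The log2 fold change was −1.37 (SE 0.41, adjusted *P* = 0.0488, edgeR), and 5 of 8 fits that left out 1 library lost the call, those without early WT replicate 1 or 2 or late WT replicate 2, 3 or 4 (adjusted *P* up to 0.140). It was also lost without a filter (0.154), with the Y-linked covariate (0.0512) and with 2 groups in the fit (0.0767). The call was kept by DESeq2 (adjusted *P* = 0.00323), and by edgeR with all 6 groups (0.0312), RLE (0.0465) or upper quartile scaling (0.0431). With the macrophage covariate, where few genes of any kind passed, the value turned to 0.36 (SE 0.88, adjusted *P* = 0.925). In the *S6K1* set, early WT libraries had 344, 723, 270 and 520 CPM and late WT libraries 282, 207, 183 and 263 CPM, with a log2 fold change of −0.99 (SE 0.38, adjusted *P* = 0.112), which passed with the Y-linked covariate (−1.13, adjusted *P* = 0.0367). KO libraries had 95.5, 275 and 88.3 CPM and DKO libraries 161, 182 and 175 CPM, and neither genotype passed (log2 fold change −0.61 and 0.37, adjusted *P* = 0.651 and 0.718).

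*Igfbp2*, which encodes a binding protein abundant in fetal tissues, had the widest standard errors of the 8 genes in each comparison. In the *S6K1* set, early WT libraries had 17.3, 128, 57.7 and 81.8 CPM, whereas late WT libraries had 95.9, 1182, 148 and 5864 CPM. KO libraries had 27.7, 64.9 and 81.8 CPM. Late WT replicates 2 and 4 stood far above the other libraries, late WT overlapped with early WT, and the KO libraries lay below each late WT library. The fitted rise with passage was 4.67 on the log2 scale (SE 1.18, adjusted *P* = 0.0221, edgeR). Without late WT replicate 4 it was 2.74 (adjusted *P* = 0.0602), and the call was also lost without early WT replicate 3 (adjusted *P* = 0.0506) or 4 (0.0575). It was lost as well without a filter (0.120) and with the Y-linked covariate (3.55, adjusted *P* = 0.0650). The call was kept by DESeq2 (adjusted *P* = 0.000401), and by edgeR with all 6 groups (0.0104) or 2 groups in the fit (0.0458). With the macrophage covariate, where few genes of any kind passed, the value was 11.48 (SE 4.89, adjusted *P* = 0.926). The log2 fold change in KO MEFs was −4.97 (SE 1.36) with an adjusted *P* = 0.234, and −3.03 (adjusted *P* = 0.326) without late WT replicate 4. With the Y-linked covariate it was −2.56 (SE 1.46, adjusted *P* = 0.446). DESeq2 called it (−4.99, adjusted *P* = 0.00747).

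In the *S6K1/S6K2* set, *Igfbp2* was at 30.7, 26.8, 17.2 and 24.4 CPM in early WT, 517, 42.5, 42.5 and 11 CPM in late WT and 800, 185 and 388 CPM in DKO libraries. Late WT replicate 1 stood apart, and without it all DKO libraries were above all late WT libraries. The log2 fold change with passage was 2.66 (SE 1.02, adjusted *P* = 0.108), and 0.39 (adjusted *P* = 0.628) without that library. It was 3.03 (adjusted *P* = 0.0374) without late WT replicate 4. The log2 fold change in DKO MEFs was 1.56 (SE 1.02, adjusted *P* = 0.468) with all libraries and 3.83 (adjusted *P* = 0.0096) without late WT replicate 1. It was 0.90 (adjusted *P* = 0.731) without DKO replicate 1, and the other 5 fits that left out a library gave 1.18 to 1.97 and did not pass. DESeq2 called the passage difference (2.64, adjusted *P* = 0.0424).

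*Igfbp3*, the main carrier of IGF1 in serum, rose in DKO MEFs. DKO libraries had 790, 1240 and 1455 CPM, each above all late WT libraries (472, 264, 268 and 196 CPM) and all early WT libraries (395, 259, 199 and 189 CPM). The level was 3.84-fold higher in DKO than in late WT MEFs (log2 fold change 1.94, SE 0.34, adjusted *P* = 0.00998, edgeR). It missed the threshold without DKO replicate 2 (adjusted *P* = 0.0571) or DKO replicate 3 (0.0579), at log2 fold changes of 1.90 and 1.75. With macrophage markers as a covariate it was 0.77 (SE 0.56, adjusted *P* = 0.506), in a fit where few genes of any kind passed. The part of macrophages in the *Igfbp3* level was not tested.

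In the *S6K1* set, *Igfbp3* was at 250, 237, 326 and 239 CPM in early WT, 394, 861, 290 and 324 CPM in late WT and 438, 606 and 178 CPM in KO libraries. These groups overlapped, and neither passage nor the KO passed (log2 fold change 0.82 and −0.20, adjusted *P* = 0.191 and 0.898). With passage in the *S6K1/S6K2* set the log2 fold change was 0.23 (adjusted *P* = 0.647).

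*Igfbp7*, which encodes a secreted protein that binds IGFs weakly, had its lowest values in early WT libraries of the *S6K1* set, at 639, 255, 577 and 231 CPM. Late WT libraries had 796, 853, 885 and 763 CPM and KO libraries 918, 927 and 1265 CPM, and the 3 groups did not overlap. The log2 fold change was 0.95 with passage (SE 0.31, adjusted *P* = 0.0616) and 0.33 in KO MEFs (SE 0.33, adjusted *P* = 0.769), and neither passed. The first passed without early WT replicate 1 (adjusted *P* = 0.0207) or 3 (0.0402), by DESeq2 (0.0124), with the Y-linked covariate (0.00212) and with all 6 groups in the fit (0.0279). With that covariate, the log2 fold change in KO MEFs was −0.34. Early WT, late WT and DKO libraries of the *S6K1/S6K2* set overlapped, at 436 to 856, 648 to 951 and 802 to 1251 CPM, with log2 fold changes of 0.42 with passage (adjusted *P* = 0.254) and 0.20 in DKO MEFs (adjusted *P* = 0.742).

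*Igfbp6*, whose product prefers IGF2 over IGF1, was at 19.2, 7.44 and 28.1 CPM in KO libraries against 23.2, 62.6, 65.8 and 21.5 CPM in late WT libraries. The groups overlapped, and the log2 fold change of −1.25 (SE 0.49, adjusted *P* = 0.395) did not pass. DKO libraries had 56.3, 24.9 and 15.2 CPM against 26.8, 59.5, 55.4 and 75.4 CPM in late WT libraries (log2 fold change −0.78, adjusted *P* = 0.381). With passage its log2 fold change was −0.02 (95% interval −0.88 to 0.84) and −0.04 (−0.81 to 0.72).

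**Figure D3:**
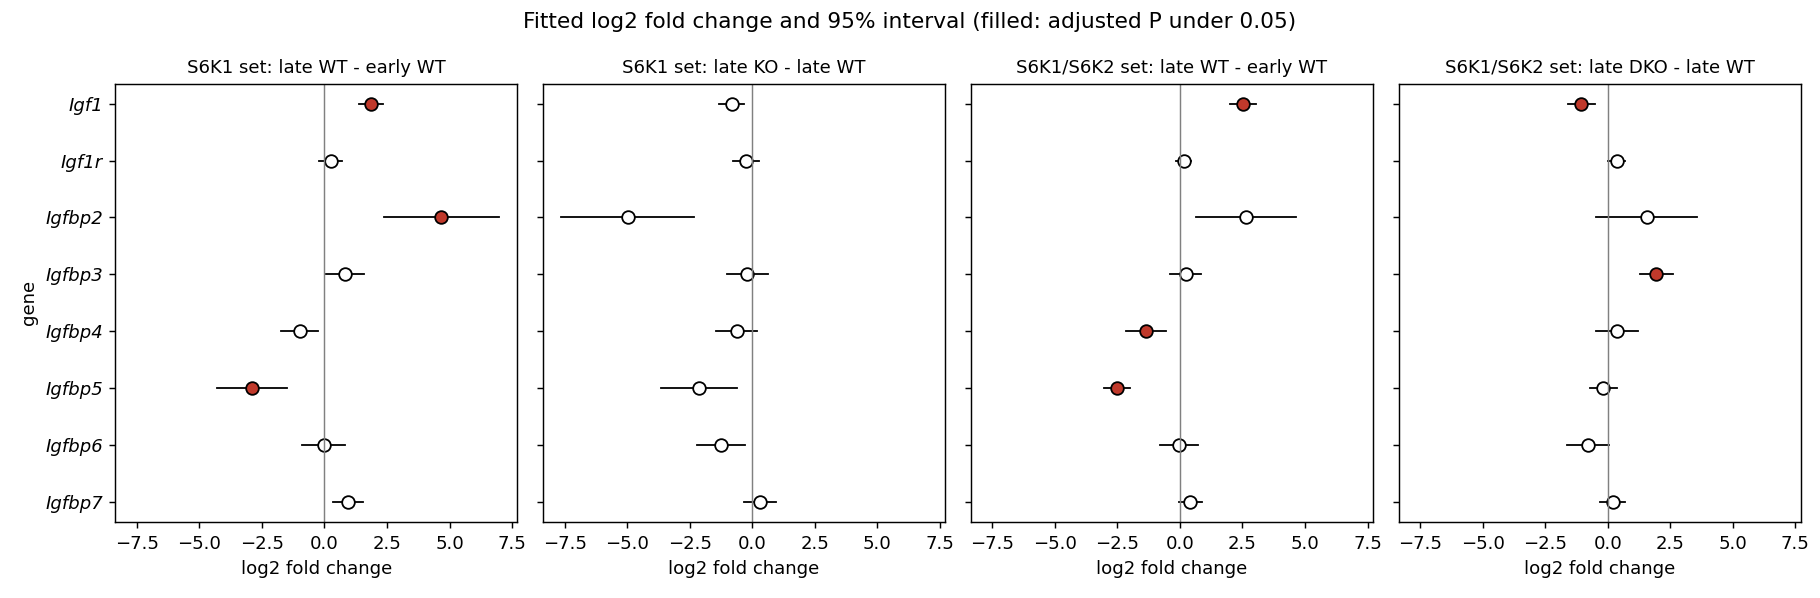
Fitted log2 fold change of each gene in the 4 comparisons within a set, with its normal 95% interval as a line and filled points where the adjusted *P* passed. *Igf1* and *Igfbp5* are filled in both passage comparisons, *Igfbp2* has the widest lines, and no point is filled for KO against late WT MEFs.

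Counted together, 3 of the 8 genes passed with passage in the *S6K1* set (*Igf1* and *Igfbp2* higher, *Igfbp5* lower), where 12.9% of 14132 genes tested passed, 6.96% higher and 5.97% lower. *Igf1*, *Igfbp7* and *Igfbp5* did not overlap between early and late libraries, where 18.3% of genes did not. The median log2 fold change of the 8 genes was 0.54, against −0.04 over all genes. In the *S6K1/S6K2* set 3 of 8 passed (*Igf1* higher, *Igfbp4* and *Igfbp5* lower), where 13.2% of 14365 genes passed (8.28% higher and 4.89% lower), with a median of 0.19 against 0.01. *Igf1* and *Igfbp5* did not overlap between passages, where 20.3% of genes did not. In DKO MEFs 2 of 8 passed (*Igfbp3* higher, *Igf1* lower), where 4.78% of genes passed (0.821% higher and 3.95% lower), with a median of 0.28 against −0.01. The same 2 genes did not overlap between genotypes, where 16.4% of genes did not. In KO MEFs 0 of 8 passed by edgeR, where 0.0425% of genes passed (0.00708% higher and 0.0354% lower). DESeq2 called 1, and 4 of 8 (*Igf1*, *Igfbp2*, *Igfbp5* and *Igfbp6*) had an unadjusted *P* under 0.05, where 10.6% of genes did. The median log2 fold change in KO MEFs was −0.72 against −0.01, with 7 of 8 genes lower. *Igf1* and *Igfbp2* were lower and *Igfbp7* higher in KO MEFs without overlap between the groups, where 13.2% of genes did not overlap. The KO and DKO comparisons use different late WT libraries, but each shares its late WT libraries with the passage comparison of its set.

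The effects of the KO and the DKO on *Igfbp2* and *Igfbp3* were compared directly. For *Igfbp2*, DKO minus KO was 6.55 on the log2 scale (SE 1.74, adjusted *P* = 0.277, edgeR interaction over all 22 libraries), and for *Igfbp3* it was 2.15 (SE 0.57, adjusted *P* = 0.277). The *Igfbp2* difference was 4.61 without late WT replicate 4 of the *S6K1* set, 8.81 without late WT replicate 1 of the *S6K1/S6K2* set and 4.80 with the Y-linked covariate, and none of these passed (adjusted *P* = 0.328, 0.0813 and 0.616). With all libraries 0 of the 8 genes passed by edgeR, where 0.00672% of 14886 genes passed. At an unadjusted *P* under 0.05 there were 3 (*Igfbp2*, *Igfbp3* and *Igfbp5*), where 10.9% of genes were. DESeq2 called both *Igfbp2* (adjusted *P* = 0.0230) and *Igfbp3* (0.0349). The effect of passage differed between the sets in 0 of the 8 genes, where 0.712% of genes passed by edgeR. In this test 0 of the 8 had an unadjusted *P* under 0.05, where 9.55% of genes did, and 0 passed by DESeq2.

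Levels were compared between genes only per length, as CPM per kilobase of exon. *Igfbp7* made up the largest mean share of the summed transcripts of the 6 binding proteins in each group, from 43.0% ± 19.8 in early WT MEFs of the *S6K1* set to 77.4% ± 8.95 in KO MEFs. *Igfbp4* made up 24.7% ± 10.9 and 17.7% ± 11.9 in early WT MEFs and 4.81% to 6.79% on average in the 4 late groups. The share of *Igfbp5* was 12.1% ± 6.79 and 4.20% ± 1.31 in early WT MEFs and at most 0.954% on average in the late groups. In DKO MEFs *Igfbp3* held 24.9% ± 9.89, and in late WT replicate 4 of the *S6K1* set *Igfbp2* held 78.6%. The summed level of the 6 was 807 ± 90.2 and 876 ± 96.2 CPM per kilobase in early WT MEFs, and 1001 ± 235 in late WT and 1554 ± 249 in DKO MEFs of the *S6K1/S6K2* set. In the *S6K1* set it was 1966 ± 1430 in late WT MEFs, with a range of 977 to 4041 whose highest value was in replicate 4, and 1101 ± 121 in KO MEFs, so the KO mean was below and the DKO mean above that of its late WT controls. By the same measure *Igf1* transcripts were rare, at 2.87 to 16.3 CPM per kilobase on average, and *Igf1r* was at 36.3 to 53.9.

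**Figure D4:**
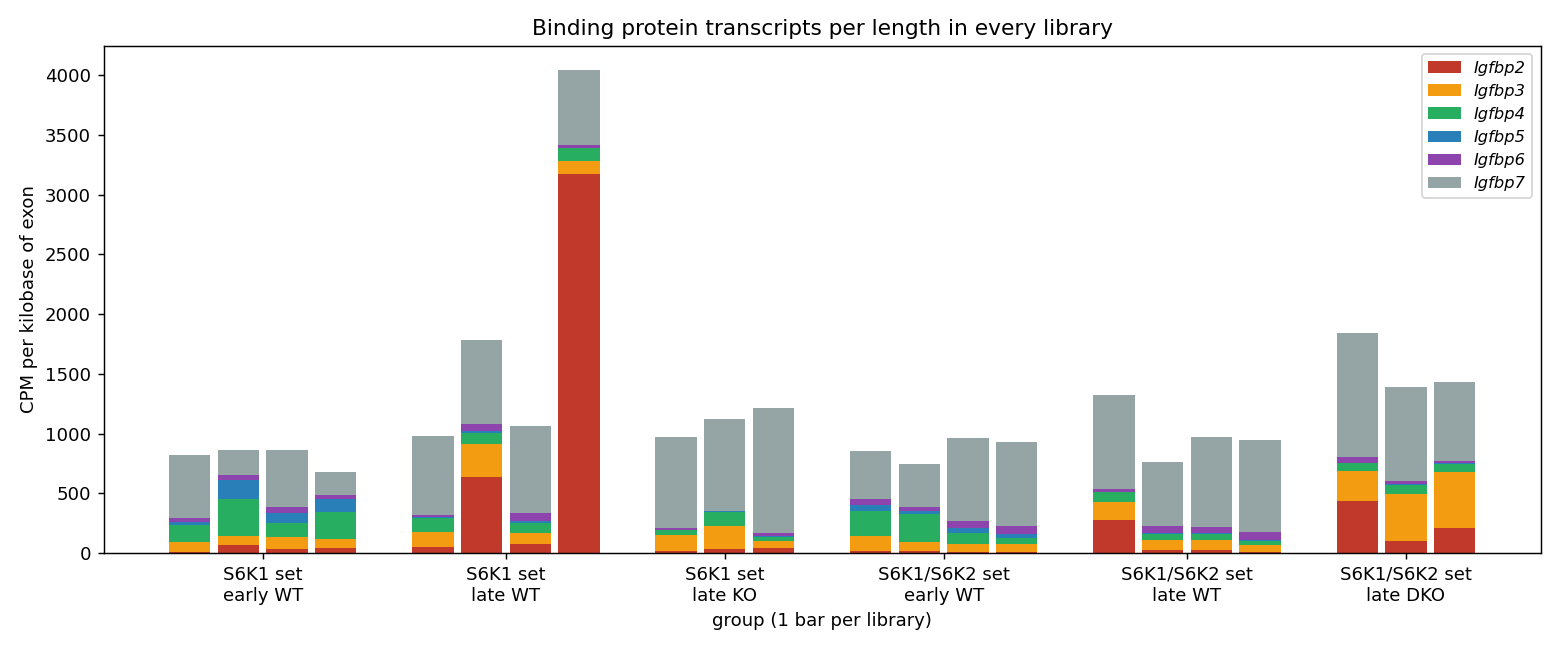
CPM per kilobase of exon of the 6 binding protein genes, stacked, 1 bar per library and 6 groups of bars. Grey *Igfbp7* fills most bars, green *Igfbp4* and blue *Igfbp5* are tallest on average in early WT libraries, orange *Igfbp3* in DKO libraries, and red *Igfbp2* makes up 78.6% of the tallest bar.

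The genes whose level followed each of the 8 most closely were taken by Pearson correlation of log2 CPM, centred on the mean of each set, over the 22 libraries and 13765 genes. The libraries share passage and genotype, so these values are descriptions. For *Igf1* they were *Rgs10* (0.97) and *Cadm1* (0.96), for *Igf1r* *Zfp809* and *Ahnak* (both 0.91), and for *Igfbp3* *Pros1* (0.90) and *Ncam2* (0.88). For *Igfbp4* they were *Lgals7* (0.92) and *A230050P20Rik* (0.90), and for *Igfbp5* *Col1a2*, a collagen chain, and *Aak1* (both 0.90). For *Igfbp7* they were *Ctsl*, a lysosomal protease, and *5430417L22Rik* (both 0.93), and for *Igfbp6* *Chchd10* and *Rbpms* (both 0.84). *Igfbp2* had the weakest partners, *Pax8* (0.82, at a mean of only 0.441 CPM) and *Ntrk3* (0.81).

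Among 13 other extracellular and receptor genes of the axis, 9 were tested, and 3 fell with passage in both sets while none rose, where 5.97% and 4.89% of all genes fell in the *S6K1* and *S6K1/S6K2* sets. The median log2 fold change of the 9 was −0.64 and −0.26, against −0.04 and 0.01 over all genes. *Igf2*, the fetal ligand, was at 33.8 ± 14.8 CPM in early and 0.517 ± 0.186 CPM in late WT MEFs of the *S6K1* set (log2 fold change −6.05, SE 0.42, adjusted *P* = 1.04e-05, edgeR), and at 17.2 ± 6.27 and 0.815 ± 0.340 CPM in the *S6K1/S6K2* set (−4.34, SE 0.51, adjusted *P* = 0.000612). *Igf2r*, the receptor that clears IGF2, fell by 0.94 and 0.65 (adjusted *P* = 0.00316 and 0.0182), and *Stc2*, an inhibitor of the *Pappa* protease, fell by 1.70 and 1.83 (adjusted *P* = 0.0138 and 0.0398) on the log2 scale. So *Igf2* and *Igf1* moved in opposite directions with passage. None of the 9 passed in KO or DKO MEFs, with the untested *Igfbp1*, *Igfals*, *Insrr* and *Pappa2* at no more than 14 counts in any library.

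Of 26 intracellular genes of IGF1 receptor signalling, all tested, 1 rose and 3 fell with passage in the *S6K1* set, where 6.96% of all genes rose and 5.97% fell. The median log2 fold change of the 26 was −0.16, against −0.04 over all genes. *Rheb*, the activator of mTOR, rose by 0.74, and the adaptor *Irs2* (−0.57), the *Rheb* inhibitor *Tsc1* (−0.57) and the cytokine signalling inhibitor *Socs3* (−1.25) fell (adjusted *P* = 0.0413, 0.0306, 0.0482 and 0.0383, edgeR). In the *S6K1/S6K2* set 1 rose with passage, *Pik3ca* (0.54, adjusted *P* = 0.0235), and 0 fell, where 8.28% and 4.89% of all genes did. In KO MEFs 0 passed, and in DKO MEFs the PI3K catalytic subunit *Pik3cb* (−1.09, adjusted *P* = 0.0185) and the phosphatase *Ptpn1* (−0.50, adjusted *P* = 0.0465) fell, 2 of 26 where 3.95% of all genes fell. Of 13 other genes with an IGF-binding domain, 10 were tested. With passage 1 of these fell in the *S6K1* set and 0 passed in the other, where 12.9% and 13.2% of all genes passed in either direction. *Ccn1*, a matricellular protein, fell with passage in the *S6K1* set (−1.09, SE 0.13, adjusted *P* = 0.00029) but had −0.05 (SE 0.18, adjusted *P* = 0.866) in the *S6K1/S6K2* set, and the interaction passed (1.00, SE 0.21, adjusted *P* = 0.0245). *Ccn3* (1.27, adjusted *P* = 0.0319) and *Kazald1* (1.18, adjusted *P* = 0.0450) rose in DKO MEFs, 2 of 10 where 0.821% of all genes rose, and 0 passed in KO MEFs.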

How the data were processed

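RNA-seq values of 22 libraries of passaged MEFs were used, with groups taken from the labels. The deposited values are raw counts per gene, which the authors did not normalize. The study's methods name TopHat, mm9 and HTSeq, whereas the submitters' processing notes list CASAVA, STAR 2.7.1a, mm10 and DESeq2 1.28.1. Of the identifiers, 41.2% were absent from the GENCODE vM1 annotation of mm9, so the counts were not made with that annotation. The mm10 build of the processing notes was not checked further. The strand setting is not given in the sources used here. Gene positions and promoters are those of RefSeq (GRCm38.p6).

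The statistics were computed in R 4.3.3 by edgeR 4.0.16, using filterByExpr, TMM scaling and a robust quasi-likelihood F test over the 3 groups of a set, or over all 22 libraries for interactions, with Benjamini-Hochberg adjustment over all genes tested and a threshold of 0.05. CPM are counts per 1000000 of the TMM-scaled library size, and 3 counts corresponded to 0.173 to 0.279 CPM. The 95% intervals are normal intervals from the standard error, which are narrower than the F test with so few libraries. An interval that leaves out 0 is therefore not a call. Lengths of exons came from GENCODE vM1. The scripts were tested on simulated data. Alternatives were DESeq2 1.42.0, RLE and upper quartile scaling, no filter, other groups in the fit, Y-linked or macrophage covariates, longest transcripts for length, and leaving out each library.

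The genes, lists and tests were chosen with earlier results of these data known. All 8 genes were named in each comparison. From 3 pathway lists, genes that passed at least once were named (at most 6 per list and comparison), with *Rps6kb1*, *Rps6kb2* and *Cdkn2a* as checks. The untested genes of the first list were named after their values were seen. The 2 genes most like each of the 8 were named by correlation. Further marker lists (muscle, endothelial, cartilage and adipocyte) were used only for the summed levels given beside *Igfbp5*. The methods describe replicates as MEFs of different embryos, but the labels name none, so *P* values measure the spread between libraries. Among 30 pairs of libraries of 1 group, chi-square per degree of freedom was 20.6 to 266, so within a group none was a second sequencing of another library. The value cannot tell whether libraries came from the same embryo.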

Additional observations from a re-analysis of the deposited data

Results flagged for a closer look

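In groups of 4 libraries, the gap of the highest or lowest library to its neighbour was set against the group's whole range by Dixon's rule. Over 32 combinations of the 8 genes and 4 groups, 3 passed. The rule passes about 1 in 20 by chance only for normal values. CPM were taken without logs, so the count cannot be set against that rate. *Igfbp2* was at 517 CPM in late WT replicate 1 of the *S6K1/S6K2* set, against 11 to 42.5 CPM in the other libraries of the group. *Igfbp3* was at 326 CPM in early WT replicate 3 of the *S6K1* set, against 237 to 250 CPM. *Igfbp7* was at 648 CPM in late WT replicate 2 of the *S6K1/S6K2* set, against 920 to 951 CPM. The causes were not tested.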

How the results depend on the processing

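No paired analysis was possible because the labels give no numbers or embryos that tie libraries of one group to those of another. With passage in the *S6K1* set, 1 of the 8 genes passed without a filter on low counts (*Igf1*) and 0 with the macrophage covariate, and 2 to 4 when each library was left out. All genes called there were 3263 with the Y-linked covariate, 1 with the macrophage covariate and 1223 to 1749 when each library was left out. In KO MEFs DESeq2 called 1 of the 8 genes, and leaving out libraries gave 0 to 0. All genes called were 266 by DESeq2, 43 without the filter, 26 with the Y-linked covariate, 2 with the macrophage covariate, 16 with all 6 groups in the fit and 2 to 9 when each library was left out, against 6. With passage in the *S6K1/S6K2* set 0 of the 8 genes passed with the macrophage covariate and 2 to 3 when each library was left out, and all genes called were 2845 by DESeq2, 4 with that covariate and 885 to 2247 when each library was left out, against 1892. In DKO MEFs 1 of the 8 (*Igfbp3*) passed with RLE scaling, upper quartile scaling, no filter or the Y-linked covariate, 0 with the macrophage covariate and 0 to 2 when each library was left out. All genes called were 1206 by DESeq2, 17 with the macrophage covariate and 97 to 783 when each library was left out, against 686. For the difference between DKO and KO, DESeq2 called 2 of the 8 genes, all genes called were 65 by DESeq2, 3 without the filter and 1 to 5 when each library was left out, and for the difference in passage they were 222 by DESeq2 and 78 to 118 when each library was left out, against 106.

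Direction reversed as follows, all for values that had not passed unless stated. With the Y-linked covariate, the log2 fold change of *Igfbp6* with passage was 0.05 and 0.04, that of *Igf1r* in KO MEFs 0.20, that of *Igfbp7* in KO MEFs −0.34 and in DKO minus KO 0.16. With 2 groups in the fit *Igfbp6* with passage in the *S6K1* set was 0.01. With the macrophage covariate, passage gave −0.82 for *Igfbp7* in the *S6K1* set, and −0.35 for *Igf1r*, 0.36 for *Igfbp4* (which had passed) and −0.67 for *Igfbp7* in the other set. DKO gave 0.28 for *Igf1* (which had passed), −0.98 for *Igfbp4* and 0.55 for *Igfbp6*. The differences between sets gave 0.03 for *Igfbp6* with passage, and 0.47 for *Igf1* and 0.64 for *Igfbp7* in DKO minus KO. Standard errors were wider with that covariate than without it in most of these fits. When each library was left out, the values ran from −0.27 to 0.20 for *Igfbp6* with passage in the *S6K1* set, −0.61 to 0.28 for *Igfbp3* in KO MEFs, −0.25 to 0.17 for *Igfbp6* with passage in the *S6K1/S6K2* set, −0.08 to 0.49 for *Igfbp3* with passage in the *S6K1/S6K2* set, −0.29 to 0.06 for *Igfbp5* in DKO MEFs, −0.34 to 0.04 for *Igf1r* for the difference in passage, −0.28 to 0.22 for *Igfbp6* for the difference in passage, −0.01 to 0.79 for *Igfbp5* for the difference in passage, −0.28 to 0.07 for *Igfbp7* for DKO minus KO and −0.17 to 0.95 for *Igfbp6* for DKO minus KO. The macrophage covariate cannot be told apart from passage or genotype in these cultures, and 3 or 4 libraries per group limit what could be detected. Levels per kilobase moved by more than 1 SD in 10 of 48 cases with the longest transcript in place of all exons, and the causes of these changes were not tested.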
